A study of Mus musculus with 9 samples.

Results

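The genes described here were 9 receptors, transcription factors and targets of the Hedgehog pathway, chosen by name: the receptor Ptch1, the transducer Smo, the co-receptors Boc, Cdon and Gas1, the transcription factors Gli1, Gli2 and Gli3, and the ligand-binding inhibitor Hhip. All 9 were among the 26214 genes listed, and all 9 passed the filter on low values that left 13601 genes for testing. The pathway was chosen for its known part in restraining fat formation by fibroadipogenic progenitors (FAPs), the mesenchymal progenitors of skeletal muscle.

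RNA was sequenced from adipose stromal cells (ASCs) of the subcutaneous adipose tissue (ScAT) and from FAPs of the quadriceps of C57Bl/6 mice at day 1 after an injection into the quadriceps. ASCs (3 libraries) and FAPs (2 libraries) came from mice injected with NaCl, the non-injured control, and injured FAPs (3 libraries) from mice injected with glycerol, which damages the myofibers. For the muscle injuries, the study's methods name male C57Bl/6 J mice, adult by their stated age in weeks. The methods also name magnetic depletion of CD45+ and CD31+ cells followed by magnetic selection for Sca-1. Triplicates are described as made from a pool of cells of 3 animals. Whether each library had a pool of its own is not clear from this, so p-values measure the spread between libraries and may not cover that between animals. A single library of CD31+CD45+ cells of the injured quadriceps entered no test. Pdgfra and Ly6a, the gene of Sca-1, were present in every ASC and FAP library, at no less than 10823. The pan-leukocyte gene Ptprc was at 55.8 or less in these 8 libraries, and Pecam1, the gene of CD31, at 269 or less. Other markers reached more, with the leukocyte gene Lyz2 at up to 725 and the endothelial gene Cdh5 at up to 1438. In the FAP libraries Ptprc is listed at 0, which may not be a count of 0.

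Hedgehog ligands bind Ptch1, which otherwise holds Smo inactive, and Boc, Cdon and Gas1 help to present the ligand. Once released, Smo acts in the primary cilium and turns the Gli proteins into activators. Gli2 is the main activator, Gli3 serves largely as a repressor when the pathway is off, and Gli1 is both an activator and a target gene. Ptch1 and Hhip are targets as well and dampen the signal, so their transcripts are widely read as a measure of the pathway's output. In muscle, FAPs carry the cilia that receive the signal, and Hedgehog activity is known to keep them from becoming adipocytes.

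The values are read counts scaled by library size factors. The libraries held 27349184 to 27481573 reads in ASCs, 24052508 and 24164447 in FAPs, 26698572 to 27028114 in injured FAPs and 13091077 in CD31+CD45+ cells. At this depth 3 reads are worth a value of 2.29 to 4.71, and every one of the 9 genes was far above that level in each library, the lowest value being 70.6. Groups were compared with limma on log2(value + 1), and a gene was called lower or higher where its log2 fold change exceeded 0.58 (1.49-fold) and its Benjamini-Hochberg adjusted p was below 0.05. Fold changes are on this log2(value + 1) scale, which understates the change of genes with low values.

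In injured FAPs the pathway's receptors and targets were mostly lower than in FAPs. Of the 9 genes 7 were lower (Ptch1, Boc, Cdon, Gas1, Gli1, Gli2 and Hhip), Gli3 was higher, and Smo did not pass the threshold, so 8 were called. Over all genes tested 52.6% were called, 27.7% lower and 24.9% higher. The median log2 fold change was −1.81 over the 9 genes and −0.05 over all genes. The largest falls were those of Hhip and Gli1, 7.29-fold and 7.26-fold. In bulk RNA, fewer cells of a type and less RNA per cell cannot be told apart.

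ASCs were also lower than FAPs for 6 of the 9 genes (Ptch1, Boc, Gas1, Gli1, Gli2 and Hhip) and higher for Gli3, which makes 7 called. Over all genes tested 47.2% were called in this comparison, 23.8% lower and 23.4% higher. The median log2 fold change was −1.29 over the 9 genes and 0.005 over all genes. This comparison and the one above share the same FAP libraries, so a deviation of these libraries would enter both. Against ASCs, a comparison without the FAP libraries that shares its libraries with the other 2, 5 genes were lower in injured FAPs (Cdon, Gas1, Gli1, Gli2 and Hhip) and Ptch1 was higher. These are 6 of 9 called against 50.8% of all genes, of which 25.8% were lower and 25% higher, and the median was −0.87 over the 9 genes and 0.02 over all.

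The counts between muscle and adipose cells depend on the scaling of the libraries. With each library scaled to the same total, the median log2 fold change of all genes was 0.71 in injured FAPs against ASCs and −0.56 in ASCs against FAPs, and it was 0.08 between injured FAPs and FAPs. The share of higher genes among those called then moved from 49.3% to 81.3% in the first and from 49.6% to 20.1% in the second. Under that scaling 3 of the 9 genes were called between injured FAPs and ASCs, Cdon lower and Ptch1 and Smo higher, while 7 were lower and 0 higher in ASCs than in FAPs, and 6 lower and 1 higher in injured FAPs than in FAPs. Over all genes 9069, 7911 and 7214 were then called in these comparisons, in place of 6909, 6416 and 7153 under the deposited scaling. Such a factor per library shifts all genes together, so changes relative to the median of all genes stay nearly the same by construction. Relative to that median, the log2 fold changes in injured FAPs against ASCs were −1.21 for Gli1, −0.97 for Hhip, −0.89 for Gli2 and −0.89 for Gas1 under the deposited scaling, and −1.29, −1.14, −0.90 and −0.42 with quantile normalization. With a common 75th percentile the median of all genes was 0.14 in injured FAPs against ASCs, −0.16 in ASCs against FAPs and −0.10 between injured FAPs and FAPs.

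**Figure D1:**
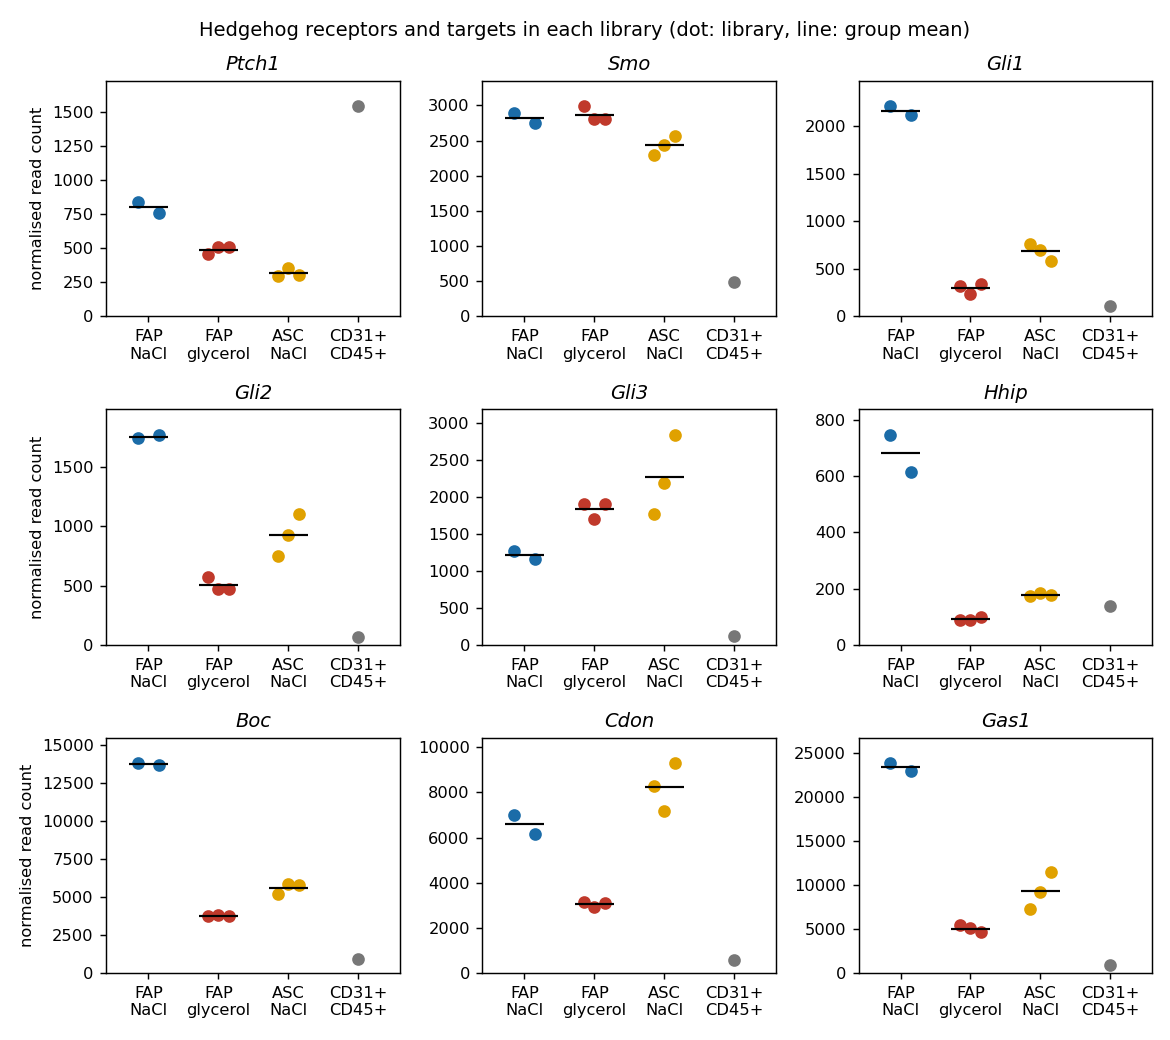
Normalised read counts of the 9 Hedgehog genes in each library, with an axis from 0 in each panel; each dot is a library and each line a group mean, for FAPs (n = 2), injured FAPs (n = 3), ASCs (n = 3) and CD31+CD45+ cells (n = 1). For Gli1, Gli2, Hhip, Boc and Gas1 the FAP libraries stand highest, the ASCs between and the injured FAPs lowest of these 3 groups (for Boc, ASCs and injured FAPs change places with equal library totals), while Gli3 is lowest in FAPs among these 3 groups.

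**Figure D2:**
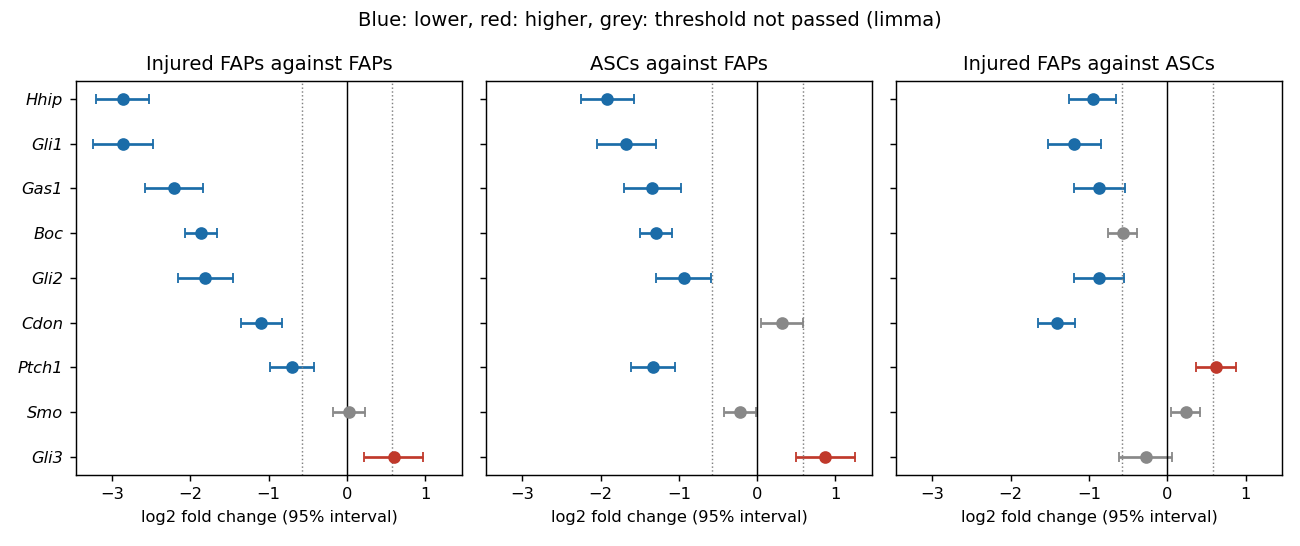
Log2 fold changes of the 9 genes with their 95% confidence intervals from limma in the 3 comparisons; dotted lines mark the threshold of 0.58 either way. Hhip (−2.87) and Gli1 (−2.86) fell most in injured FAPs against FAPs, and Gli3 lay at the threshold (0.60).

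Ptch1, the receptor and itself a target, was at 843 and 759 in the FAP libraries, 457, 508 and 508 in injured FAPs and 296, 355 and 304 in ASCs. The groups did not overlap, with FAPs highest, injured FAPs next and ASCs lowest. By limma with Benjamini-Hochberg adjustment, the log2 fold change of Ptch1 was −0.71 (standard error 0.13, adjusted p = 0.000723) in injured FAPs against FAPs, −1.33 (standard error 0.13, adjusted p = 1.19e-05) in ASCs against FAPs and 0.63 (standard error 0.11, adjusted p = 0.00068) in injured FAPs against ASCs. Ptch1 was thus the only one of the 9 genes called higher in injured FAPs than in ASCs under the deposited scaling. That call was lost with quantile normalization (0.49) and without ASC replicate 1 (0.58), and the fall against FAPs missed the fold threshold with equal library totals (−0.57).

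Smo, the membrane protein that relays the signal, was at 2894 and 2742 in FAPs, 2987, 2805 and 2801 in injured FAPs and 2288, 2433 and 2568 in ASCs. Injured FAPs and FAPs overlapped, and the ASC libraries lay below both. Smo did not pass the threshold in injured FAPs against FAPs, with a log2 fold change of 0.02 and a 95% confidence interval of −0.18 to 0.23 (limma, Benjamini-Hochberg adjusted p = 0.836), and its sign changed in 4 of 20 alternatives, with quantile normalization (−0.12), a common 75th percentile (−0.03), without FAP replicate 2 (−0.0154) and without injured FAP replicate 1 (−0.00734). In ASCs against FAPs it was −0.21 (limma, adjusted p = 0.0672), and in injured FAPs against ASCs 0.24 (adjusted p = 0.0268), below the fold threshold. Smo was called lower in ASCs than in FAPs with quantile normalization (−0.58) and with equal library totals (−0.78), and higher in injured FAPs than in ASCs with equal totals (0.94).

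Among the co-receptors, Boc was at 13834 and 13688 in FAPs, 5231, 5857 and 5831 in ASCs and 3801, 3816 and 3751 in injured FAPs. The 3 groups did not overlap, with FAPs highest and injured FAPs lowest under the deposited scaling. Limma with Benjamini-Hochberg adjustment gave a log2 fold change of −1.86 (standard error 0.09, adjusted p = 3.05e-07) in injured FAPs against FAPs and −1.29 (standard error 0.09, adjusted p = 1.74e-06) in ASCs against FAPs. Between injured FAPs and ASCs the value of −0.57 (limma, adjusted p = 0.000137) lay just short of the fold threshold, which it passed without ASC replicate 1 (−0.62). With equal library totals its sign changed (0.13).

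Gas1, a membrane-anchored co-receptor, was at 23865 and 22999.5 in FAPs, 7367, 9278 and 11559.5 in ASCs and 5446, 5108 and 4668 in injured FAPs. It followed the same order as Boc without overlap, and the ASC libraries were more spread. The log2 fold change of Gas1 by limma with Benjamini-Hochberg adjustment was −2.21 (standard error 0.16, adjusted p = 2.18e-06) in injured FAPs against FAPs, −1.34 (standard error 0.16, adjusted p = 6.69e-05) in ASCs against FAPs and −0.87 (standard error 0.15, adjusted p = 0.000425) in injured FAPs against ASCs. The last call was lost with quantile normalization (−0.38) and with equal library totals (−0.17).

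Cdon, the relative of Boc, had another pattern, at 7007 and 6145 in FAPs, 8294, 7181 and 9283 in ASCs and 3164, 2952 and 3121 in injured FAPs. Every injured FAP library lay below every ASC and FAP library, while all ASC libraries lay above those of FAPs. Cdon fell in injured FAPs against FAPs by 1.09 on the log2 scale (standard error 0.12, limma with Benjamini-Hochberg adjusted p = 2.59e-05) and against ASCs by 1.41 (standard error 0.11, adjusted p = 1.51e-06). In ASCs against FAPs its log2 fold change of 0.32 (limma, adjusted p = 0.0391) was below the fold threshold, and its sign changed with quantile normalization (−0.32) and with equal library totals (−0.24).

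Gli1, the transcription factor that is also a target, was at 2209.9 and 2119.6 in FAPs, 763, 703 and 585 in ASCs and 321, 237 and 346 in injured FAPs. The lowest FAP library was more than double the highest ASC library, and no injured FAP library reached the lowest ASC library. By limma with Benjamini-Hochberg adjustment, the log2 fold change of Gli1 was −2.86 (standard error 0.17, adjusted p = 7.24e-07) in injured FAPs against FAPs, −1.67 (standard error 0.17, adjusted p = 1.92e-05) in ASCs against FAPs and −1.19 (standard error 0.15, adjusted p = 6.26e-05) in injured FAPs against ASCs. Over the 20 alternative settings its value in injured FAPs against FAPs ranged from −3.13 to −2.70 and passed in all of them. The last of the 3 calls was lost with equal library totals (−0.49).

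Gli2, the main activator, was at 1743 and 1774 in FAPs, 752, 929 and 1102 in ASCs and 574, 469 and 469 in injured FAPs. Its groups were in the order of Gli1 and did not overlap. Gli2 had a log2 fold change of −1.81 (standard error 0.16, adjusted p = 6.13e-06) in injured FAPs against FAPs by limma with Benjamini-Hochberg adjustment, of −0.94 (standard error 0.16, adjusted p = 0.000583) in ASCs against FAPs and of −0.87 (standard error 0.14, adjusted p = 0.000351) in injured FAPs against ASCs, where equal library totals gave −0.17.

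Gli3, which can act as a repressor, went the other way. It was at 1266 and 1167 in FAPs, 1907, 1702 and 1911 in injured FAPs and 1769, 2190.5 and 2843 in ASCs. Both FAP libraries lay below every ASC and injured FAP library, and injured FAPs overlapped with ASCs. By limma with Benjamini-Hochberg adjustment, its log2 fold change was 0.60 (standard error 0.17, adjusted p = 0.0101) in injured FAPs against FAPs and 0.87 (standard error 0.17, adjusted p = 0.00129) in ASCs against FAPs, and it did not pass in injured FAPs against ASCs (−0.28, 95% confidence interval −0.61 to 0.06, adjusted p = 0.13), where equal library totals changed its sign (0.42). The rise in injured FAPs was at the edge of the fold threshold. It missed the threshold with quantile normalization (0.52), a common 75th percentile (0.55), the replicate number as a term (0.49), without FAP replicate 2 (0.54, limma adjusted p = 0.0747) and without injured FAP replicates 1 or 3 (0.57 each), with adjusted p-values from 0.000122 to 0.0747 over all settings. With equal library totals the rise in ASCs missed it too (0.31).

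Hhip, a membrane glycoprotein that binds and sequesters the ligands, was at 746 and 613 in FAPs, 175, 185 and 177 in ASCs and 89.4, 88.3 and 98.4 in injured FAPs. The 3 groups did not overlap, and the injured FAP libraries were lowest. The log2 fold change of Hhip was −2.87 (standard error 0.15, adjusted p = 4.09e-07) in injured FAPs against FAPs by limma with Benjamini-Hochberg adjustment, −1.91 (standard error 0.15, adjusted p = 3.32e-06) in ASCs against FAPs and −0.95 (standard error 0.13, adjusted p = 0.000124) in injured FAPs against ASCs, the last lost with equal library totals (−0.26). Hhip lay closest to Gli1 of the 8 other genes by the root mean square distance of their centred log2 profiles over the 8 libraries (0.200). The distance of Gli2 to Gas1 was smaller still (0.184), and that of Gli3 to Hhip was the largest of all pairs (1.40).

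Per length of exon, Gas1 had the highest level of the 9 genes in FAPs, at 7914 ± 207 normalised reads per kb of exon (SD, n = 2). Exon lengths came from GENCODE and may differ from those of the annotation used for counting, so levels per kb, their order and the shares drawn from them are approximate. Boc was at 3092 ± 23.1, Cdon at 852 ± 79.0 and Smo at 501 ± 19.0 per kb. The level per kb was 433 ± 12.8 for Gli1, 256 ± 3.23 for Gli2 and 127 ± 7.30 for Gli3, and Hhip (67.6 and 82.2) and Ptch1 (53.5 and 59.5) were lowest. In the FAP libraries the ranges of neighbours in this order did not overlap. In ASCs the ranges per kb of Boc and Cdon overlapped, as did those of Gli1 and Gli2. In injured FAPs the ranges of Gli2 and Gli1 overlapped, and Smo stood above Cdon.

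**Figure D3:**
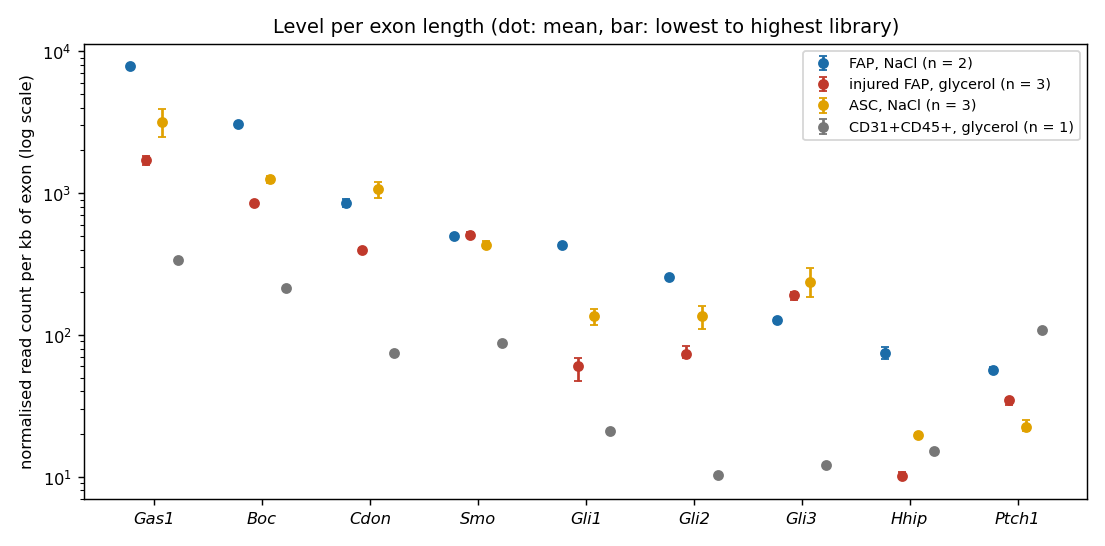
Normalised read count per kb of exon for each gene on a log scale, ordered by the level in FAPs; dots are group means and bars run from the lowest to the highest library (FAPs n = 2, injured FAPs n = 3, ASCs n = 3, CD31+CD45+ cells n = 1). Gli1 (433) stands above Gli3 (127) in FAPs, and Gli3 (192) above Gli1 (60.3) in injured FAPs.

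Gli1 and Gli3 changed places between the groups. On the per kb scale, Gli1 was 3.35 and 3.49 times the level of Gli3 in the FAP libraries, 0.828, 0.616 and 0.395 times in ASCs and 0.323, 0.268 and 0.347 times in injured FAPs. Gli1 was thus the most abundant of the 3 in both FAP libraries, and Gli3 in each of the 6 ASC and injured FAP libraries. Gli3 made up 15.9% and 15.1% of the summed level per kb of the 3 genes in FAPs, 41.3%, 45.3% and 51.7% in ASCs and 57.4%, 60.5% and 59.2% in injured FAPs. Both genes of a ratio come from the same library, so a single scaling factor per library leaves the ratio as it is, which quantile normalization does not. The ratio itself was not tested, and how much of the Gli3 transcript is made into repressor is not measured by RNA.

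The 9 genes lie on chromosomes 1, 6, 8, 9, 10, 13 and 16 of GRCm38, with Ptch1, Gli3 and Gas1 all on chromosome 13. All are protein-coding. Exons of other genes on the opposite strand overlap 19.9% of the exon bases of Gas1 (Gm48488), 6.55% of those of Gli1 (Arhgap9 and Gm47200), 1.96% of Gli3 and 1.93% of Hhip in the GENCODE annotation. The strand setting of the counting is not given in the sources used here, so reads from these stretches cannot be told apart.

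RefSeq promoter windows (GRCm38.p6, 250 bases before to 50 after the start) were matched for 7 of the 9 genes, without Gli1 and Boc. The Gli consensus GACCACCCA (TGGGTGGTC on the other strand) was in 0 of these 7 windows and in 83 (0.253%) of all 32851, which says only that these letters are not in the windows. The GC box GGGCGG (or CCGCCC) was in 5 of 7 (Ptch1, Gli2, Gli3, Hhip and Gas1) and in 35.7% of all windows, and the TATA box TATAAA (or TTTATA) in 0 of 7 and in 13.6% of all. The 250 bases before the start of Gli2 (chr1:119053620-119053869, minus strand), Hhip (chr8:80058009-80058258, minus strand) and Gas1 (chr13:60177536-60177785, minus strand) lie outside the GENCODE span of the gene itself. Overlap with other genes was not checked. These stretches are shown 5′ to 3′ with each GC box in capitals. They hold 22, 28 and 10 CpG dinucleotides, against a median of 6 over all windows, and 67.2%, 76% and 58.8% GC, against a median of 52.4%. The stretch before Smo also lies outside its own gene, holds no GC box and is not shown.
Gli2: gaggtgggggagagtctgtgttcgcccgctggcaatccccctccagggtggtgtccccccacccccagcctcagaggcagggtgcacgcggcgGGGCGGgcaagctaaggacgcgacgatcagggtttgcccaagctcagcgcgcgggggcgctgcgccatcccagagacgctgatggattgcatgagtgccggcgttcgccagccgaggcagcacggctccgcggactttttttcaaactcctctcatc
Hhip: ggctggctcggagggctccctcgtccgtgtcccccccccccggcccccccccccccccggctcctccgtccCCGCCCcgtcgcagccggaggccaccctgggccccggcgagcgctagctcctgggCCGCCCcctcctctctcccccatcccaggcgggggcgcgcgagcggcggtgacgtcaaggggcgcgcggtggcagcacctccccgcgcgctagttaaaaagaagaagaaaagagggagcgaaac
Gas1: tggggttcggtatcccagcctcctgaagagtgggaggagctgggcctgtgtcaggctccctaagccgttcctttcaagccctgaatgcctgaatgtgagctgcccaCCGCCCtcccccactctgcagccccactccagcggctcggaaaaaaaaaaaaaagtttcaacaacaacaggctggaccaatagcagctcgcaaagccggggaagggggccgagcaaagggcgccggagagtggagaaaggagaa

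Among the ligands and the genes that release them, Shh was listed at 0 in all libraries and Ihh was at 8.47 or less. Dhh was listed at 0 in both FAP libraries, at 3.95, 5.66 and 12.6 in ASCs and at 14.9, 13.9 and 15.3 in injured FAPs. These 3 were below the filter and were not tested. A listed 0 in the FAP libraries may not be a count of 0, since Cd36 and Pecam1, at 1080.2 and 195 in FAP replicate 1, are listed at 0 in replicate 2, and this was not tested. The same holds for the marker genes listed at 0 in FAPs.

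The other 5 genes of the ligand list were tested. Disp1, which releases the lipid-bound ligand from its source cell, was at 1873 and 2142 in FAPs, 1000.4, 914 and 903 in injured FAPs and 2716, 2663 and 3419.6 in ASCs, and was lower in injured FAPs than in FAPs (log2 fold change −1.09, limma with Benjamini-Hochberg adjusted p = 3.84e-05) and than in ASCs (−1.63, adjusted p = 8.36e-07). In ASCs against FAPs Disp1 did not pass (0.54), although it did without ASC replicate 1 (0.59), ASC replicate 2 (0.61) or FAP replicate 2 (0.64). Hhat, which attaches palmitate to the ligands, was at 237 and 183 in FAPs, 362, 315 and 339 in injured FAPs and 144, 139 and 127 in ASCs. It was higher in injured FAPs than in ASCs (1.30, limma adjusted p = 2.02e-05) and than in FAPs (0.69, adjusted p = 0.00325), the latter lost without FAP replicate 2 (0.51). Its fall in ASCs against FAPs (−0.61, limma adjusted p = 0.00769) was lost with quantile normalization (−0.31) and without FAP replicate 1 (−0.43) or ASC replicate 3 (−0.56).

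The Scube genes encode secreted carriers of the ligand and were expressed at low levels. Scube2 was at 116 and 171 in FAPs, 69.8, 69.0 and 66.4 in injured FAPs and 17.1, 28.3 and 26.4 in ASCs, with no overlap, and was called in all 3 comparisons (limma with Benjamini-Hochberg adjustment, −1.03, adjusted p = 0.00825, in injured FAPs against FAPs). That call was lost without FAP replicate 2 (−0.75). Scube1 was lower in injured FAPs than in FAPs (−1.55, limma adjusted p = 0.00772), which was lost without FAP replicate 2 too (−1.25), and Scube3 did not pass there (−1.17, adjusted p = 0.0638), although it did with a pseudocount of 8 (−0.91), with only the compared groups in the fit (−1.17), with edgeR (−1.08), at the unadjusted p or without ASC replicate 1. Of the 5 genes tested, 3 were lower and 1 higher in injured FAPs against FAPs, 3 were lower in ASCs against FAPs, and 1 was lower and 3 higher in injured FAPs against ASCs (median log2 fold changes −1.09, −0.93 and 1.30). Over all genes 52.6%, 47.2% and 50.8% were called.

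Among the other receptor-side genes, the glypicans Gpc3 and Gpc6 are cell-surface proteoglycans that bind the ligands, and Gpc3 is known to compete with Ptch1 for them. Gpc3 was at 7622 and 7240.3 in FAPs, 2218, 1930.5 and 2183 in injured FAPs and 14627, 9853 and 11199 in ASCs. Gpc6 was at 2793 and 2585 in FAPs, 946, 983 and 978 in injured FAPs and 6161, 4252 and 5593 in ASCs. For both, ASCs were highest and injured FAPs lowest under the deposited scaling, with no overlap. The log2 fold change in injured FAPs against FAPs was −1.82 for Gpc3 (limma with Benjamini-Hochberg adjusted p = 4.23e-06) and −1.47 for Gpc6 (adjusted p = 1.06e-05). The rises in ASCs against FAPs (0.66 and 0.97) depended on the scaling, with −0.04 for Gpc3 and 0.52 for Gpc6 under quantile normalization, 0.09 and 0.40 with equal library totals and, for Gpc3, 0.49 with a common 75th percentile and 0.50 without ASC replicate 1. Lrp2 and Gpc5 were at 0.775 or less in every library and were not tested.

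The relay from Smo to the Gli proteins held genes that moved either way. Of 23 genes of the relay and its brakes, 22 were tested, and 7 were lower and 3 higher in injured FAPs against FAPs, so 10 of 22 were called where 52.6% of all genes were, with a median log2 fold change of −0.11 against −0.05 over all genes. In ASCs against FAPs 4 were lower and 3 higher (median −0.07), and in injured FAPs against ASCs 4 were lower and 4 higher (median 0.009), beside 47.2% and 50.8% of all genes called. Ulk3, a kinase of the Gli proteins, was at 246 and 328 in FAPs, 78.5, 115 and 85.4 in injured FAPs and 88.3, 95.1 and 89.1 in ASCs, with both FAP libraries above every ASC and injured FAP library. It had the largest change of the list in injured FAPs against FAPs (−1.62, limma with Benjamini-Hochberg adjusted p = 8.54e-05). Evc, which acts with Smo at the base of the cilium, was at 2728 and 2746 in FAPs and 1576, 1461 and 1479.7 in injured FAPs (log2 fold change −0.86, limma adjusted p = 3.55e-05). Against that, Csnk1a1, a kinase that marks the Gli proteins for processing, was higher in injured FAPs (5193, 5134 and 5765) than in FAPs (3047 and 2962; 0.83, limma adjusted p = 9.55e-05), and so was Cul3, the scaffold of a ubiquitin ligase of the Gli proteins (0.73, adjusted p = 0.000421). The main negative regulator Sufu did not pass the threshold in any of the 3 comparisons and was at 920.5 and 1025 in FAPs, 710.1, 748 and 638 in injured FAPs and 607, 754 and 732 in ASCs. Both FAP libraries lay above every ASC and injured FAP library. Against FAPs only the fold threshold was missed, in injured FAPs (−0.478, limma adjusted p = 0.00806) and in ASCs (−0.483, limma adjusted p = 0.00847).

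Genes of the primary cilium were mostly short of the threshold. Of 33 tested, 22 did not pass in injured FAPs against FAPs, 8 were lower and 3 higher (median log2 fold change 0.05). In ASCs against FAPs 6 were lower and 2 higher (median −0.10), and in injured FAPs against ASCs 2 were lower and 3 higher (median 0.007). Bbs2 and Bbs4 of the BBSome, the coat complex that carries membrane proteins through the cilium, were lower in injured FAPs than in FAPs (−1.08, adjusted p = 0.000101, and −1.07, adjusted p = 0.00273, limma with Benjamini-Hochberg adjustment). Bbs2 was at 371 and 410.2 in FAPs and 172, 195 and 187 in injured FAPs. Tctn1 of the ciliary gate (−1.05, limma adjusted p = 6.74e-05) and Ift46 of the transport trains (−0.81, adjusted p = 0.00015) fell as well. The genes called in this list, 11, 8 and 5 of 33, stand beside 52.6%, 47.2% and 50.8% of all genes.

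**Figure D4:**
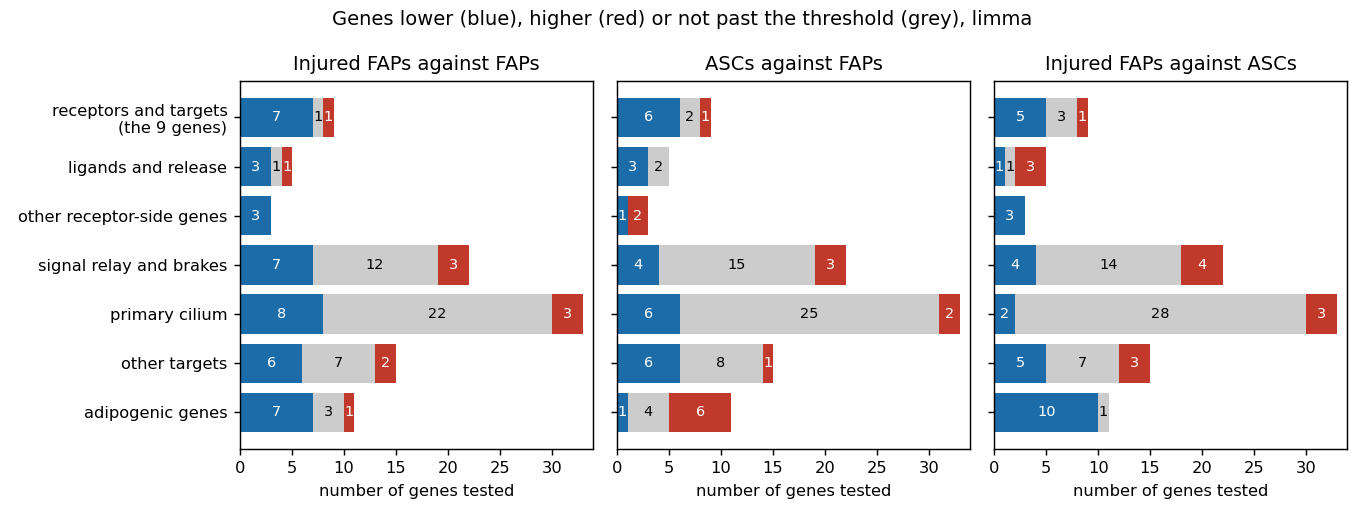
Number of genes tested that were lower (blue), higher (red) or not past the threshold (grey) in each list and comparison, by limma. The 9 receptors and targets were lower for 7, 6 and 5 genes, while most cilium genes (22, 25 and 28 of 33) did not pass.

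Other genes known as Hedgehog targets in some tissues were split. Of 16 genes 15 were tested, and 6 were lower and 2 higher in injured FAPs against FAPs (median log2 fold change −0.34), 6 lower and 1 higher in ASCs against FAPs (median −0.58), and 5 lower and 3 higher in injured FAPs against ASCs (median −0.40). The 8, 7 and 8 of 15 called stand beside 52.6%, 47.2% and 50.8% of all genes. Many of them answer to other pathways as well. Bmp4, a ligand of the BMP pathway, was at 1735 and 1727 in FAPs, 606, 643 and 738 in ASCs and 356, 358 and 338 in injured FAPs, in the order of Gli1 and without overlap (log2 fold change −2.30 in injured FAPs against FAPs, limma with Benjamini-Hochberg adjusted p = 3.18e-07). Its fall in injured FAPs against ASCs (−0.91) was lost with equal library totals (−0.21). The Notch ligand Jag2 was at 139.8 and 42.3 in FAPs and 22.0, 19.4 and 13.0 in injured FAPs (−2.06, limma adjusted p = 0.0106), a fall that did not pass without FAP replicate 1 (−1.21). Mycn, a growth regulator, was at 63.7 and 68.7 in FAPs and 18.8, 12.4 and 21.4 in injured FAPs (−1.89, limma adjusted p = 0.000547).

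The 2 targets of this list with a rise in injured FAPs against FAPs were Ccnd1 and Cdk6. Ccnd1, which encodes cyclin D1, was at 1593 and 2092 in FAPs, 1414, 1818 and 1722 in ASCs and 6100.4, 4887 and 5495 in injured FAPs, which stood above every ASC and FAP library (log2 fold change 1.58 against FAPs, limma with Benjamini-Hochberg adjusted p = 1.06e-05). Timp3, an inhibitor of metalloproteinases that Hedgehog activity is known to induce in FAPs, was at 18721 and 18332 in FAPs, 8167, 7483 and 8478 in injured FAPs and 28874, 15872 and 27862 in ASCs. Its injured FAP libraries lay below all others (−1.21, limma adjusted p = 0.000771, against FAPs), and the ASC libraries spread to both sides of those of FAPs (0.34, adjusted p = 0.212). Without ASC replicate 2, Timp3 was called higher in ASCs than in FAPs (0.61).

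Since the pathway is known to restrain fat formation, genes of adipogenesis were set beside it. Of 12 genes 11 were tested, and 7 were lower and 1 (Cebpb, not called without FAP replicate 2, at 0.51) higher in injured FAPs against FAPs, with a median log2 fold change of −1.33. In ASCs against FAPs 1 (Zfp423) was lower and 6 were higher (median 0.90), and in injured FAPs against ASCs 10 were lower and none higher (median −1.83). Of all genes 27.7%, 23.8% and 25.8% were lower and 24.9%, 23.4% and 25% higher in these comparisons. Pparg, the master regulator of adipocyte differentiation, was at 223 and 161 in FAPs, 404, 416 and 517 in ASCs and 42.4, 27.9 and 31.3 in injured FAPs, with no overlap. Its log2 fold change was −2.47 (standard error 0.23, adjusted p = 8.45e-06) in injured FAPs against FAPs and 1.22 (standard error 0.23, adjusted p = 0.00109) in ASCs against FAPs, by limma with Benjamini-Hochberg adjustment. Gli1, Ptch1, Hhip and Pparg were thus all lower in injured FAPs than in FAPs, whereas in ASCs Gli1, Ptch1 and Hhip were lower and Pparg higher than in FAPs.

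Zfp423, a factor of preadipocyte commitment, was at 1600.4 and 1736 in FAPs, 699.5, 840.4 and 1083 in ASCs and 387, 337 and 330.3 in injured FAPs, in the same order as Gli1 and without overlap (−2.25 in injured FAPs against FAPs, limma with Benjamini-Hochberg adjusted p = 2.3e-06). Lpl, the lipoprotein lipase, was at 15461 and 13186 in FAPs, 27978, 21036 and 32007 in ASCs and 3918, 3718 and 3698 in injured FAPs (−1.92 in injured FAPs against FAPs, limma adjusted p = 4.43e-06), and its rise in ASCs against FAPs (0.90) was lost with quantile normalization (0.10) and equal library totals (0.33). Plin1, which coats lipid droplets, was close to the level of 3 reads in injured FAPs (3.14, 3.10 and 0.763) and low in FAPs (9.51 and 9.41).

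The genes with profiles most like those of Gli1 and Ptch1 were sought among 10593 genes with a mean of at least 100, by the root mean square distance between centred log2 profiles over the 8 libraries. Nearest to Gli1 were Spon2 (0.104), Wfdc1 (0.181), Hhip (0.200), Fgd5 (0.205) and Klhdc8b (0.221). Spon2, a secreted matrix protein, averaged 9047 in FAPs, 2812 in ASCs and 1298 in injured FAPs. It was among the 5 nearest genes in each of 13 other settings. Hhip left them without ASC replicate 2 and without ASC replicate 3, which kept 2 and 3 of the 5. Nearest to Ptch1 were Tmppe (0.0775), Mmp11 (0.0798), Klc2 (0.120), Sdr39u1 (0.127) and Ldlrad4 (0.129). Mmp11, a matrix metalloproteinase, averaged 588 in FAPs, 359 in injured FAPs and 237 in ASCs and remained among the 5 in each of the 13 settings, while quantile normalization kept none of the other 4. Leaving out ASC replicate 1, 2 or 3 or injured FAP replicate 1 kept 2 of the 5, Tmppe and Mmp11. With 3 groups, many genes share such a profile.

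In the CD31+CD45+ library of the injured quadriceps the 9 genes were mostly low. Gli1 was at 105 (95% Poisson interval 81.5 to 134), Gli2 at 70.6 (51.5 to 94.5) and Gli3 at 116 (91.2 to 146). Smo, Boc, Cdon and Gas1 were below every ASC and FAP library. Hhip, at 138 (111 to 170.2), was above every injured FAP library and below every ASC library and both NaCl FAP libraries. Ptch1, at 1543 (1448 to 1642), was above all 8 other libraries and 3.14 times the mean of injured FAPs. Dhh, the one ligand with more than a few reads, was at 1059 (981 to 1142) there. The intervals cover counting error only, and the library has no replicate.

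Markers of other cell types moved with the groups, and their part in the results above was not tested. The 5 tenocyte genes summed to 130993 and 159032 in FAPs, 47506, 49345 and 39043 in injured FAPs and 2396, 1851 and 1593 in ASCs, with Fmod the most abundant and none at 0. All 5 were lower in ASCs than in FAPs and 4 of 5 in injured FAPs. The 6 smooth muscle and pericyte genes summed to 18599.5 and 16196 in FAPs, 8099, 7768 and 8234 in injured FAPs and 983, 672 and 509.7 in ASCs, led in these groups by Rgs5 or Acta2, Cspg4, and Myh11, Kcnj8 or Cspg4, with none at 0. Here 6 of 6 were lower in ASCs and 5 of 6 in injured FAPs, against FAPs. Both sums were highest in FAPs and lowest in ASCs, the order of Ptch1, while Gli1, Gli2, Hhip, Boc and Gas1 were highest in FAPs and lowest in injured FAPs under the deposited scaling. Kcnj8 of the smooth muscle and pericyte list also had the order of Gli1, averaging 387 in FAPs, 163 in ASCs and 85.0 in injured FAPs. Tnnt3 of the muscle fibre genes (359, 118 and 78.2) and S100b of the Schwann cell genes (193, 107 and 34.1) had it too. So did the means of the endothelial gene Kdr (869, 137 and 94.0) and of Cnn1 (43.6, 9.29 and 4.89), although their ASC and injured FAP libraries overlapped. Most genes of these lists had other orders. The mean sum of the Schwann cell genes (1491, 1037 and 632) had the order of Gli1 as well, although its FAP and ASC libraries overlapped.

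The 8 endothelial genes summed to 5054 and 3409 in FAPs, 1493, 1639 and 1246 in injured FAPs, 6480.1, 5127 and 6932 in ASCs and 253432 in CD31+CD45+ cells. Tek was the most abundant of them in ASCs and FAPs and Cdh5 in injured FAPs, and Vwf, Emcn and Cldn5 were listed at 0 in both FAP libraries and Pecam1 in FAP replicate 2. Of the 7 tested, 3 were lower and 2 higher in injured FAPs against FAPs and 3 lower and 3 higher in ASCs against FAPs. The order of the groups in this sum was set by Tek, at 2120.5 and 1890.0 in FAPs, 395, 367 and 365 in injured FAPs and 5986, 4841 and 6699.9 in ASCs.

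The 8 leukocyte genes summed to 259.6 and 485 in FAPs, 549, 2428 and 455 in injured FAPs and 456, 383 and 370.3 in ASCs, with Cd68 or Csf1r the most abundant except for Lyz2 in injured FAP replicate 2. Ptprc, Lyz2, Cd74, Adgre1, Csf1r and Cd3e were listed at 0 in both FAP libraries. Of the 6 tested, 4 were higher in injured FAPs and 3 in ASCs, against FAPs. Injured FAP replicate 2 stood apart in this sum. Without this library the counts of the 9 genes called were 8, 7 and 6, as with it. Over all genes 6910, 6299 and 6658 were then called, in place of 7153, 6416 and 6909. Injured FAP replicates 1 and 3 still held Lyz2, at 142 and 109. The part of leukocytes in the results of the 9 genes was not tested.

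The 6 Schwann cell genes summed to 1089 and 1893 in FAPs, 718, 444 and 733 in injured FAPs and 1242, 959 and 909 in ASCs, with none at 0, and 3 of 6 were lower in injured FAPs and 4 of 6 in ASCs, against FAPs. The 5 muscle fibre genes summed to 674 and 845 in FAPs, to between 207 and 262 in injured FAPs and to 151, 105 and 149 in ASCs, led by Acta1 or Tnnt3, with 2 and 4 of the 4 tested lower and Myh4 at 0 in ASC replicate 3. The 5 satellite cell genes summed to 1121 and 1081 in FAPs, 4453, 4262 and 4096 in injured FAPs and 2801, 2767 and 2660.1 in ASCs, mostly from Vcam1, which other cells express too. Of the 3 tested, 1 was lower and 1 higher in injured FAPs and 2 lower and 1 higher in ASCs, against FAPs. Pax7, the gene that defines these cells, was at 31.4 and 65.9 in FAPs, 11.8, 10.8 and 5.34 in injured FAPs and listed at 0 in all ASC libraries. The 5 genes of mature adipocytes reached at most 121 in ASCs, 21.6 in FAPs and 6.97 in injured FAPs, led by Plin1 or Adipoq, and of the 2 tested 1 was lower in injured FAPs and 2 were higher in ASCs, against FAPs. Retn was listed at 0 in all 5 FAP and injured FAP libraries.

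**Figure D5:**
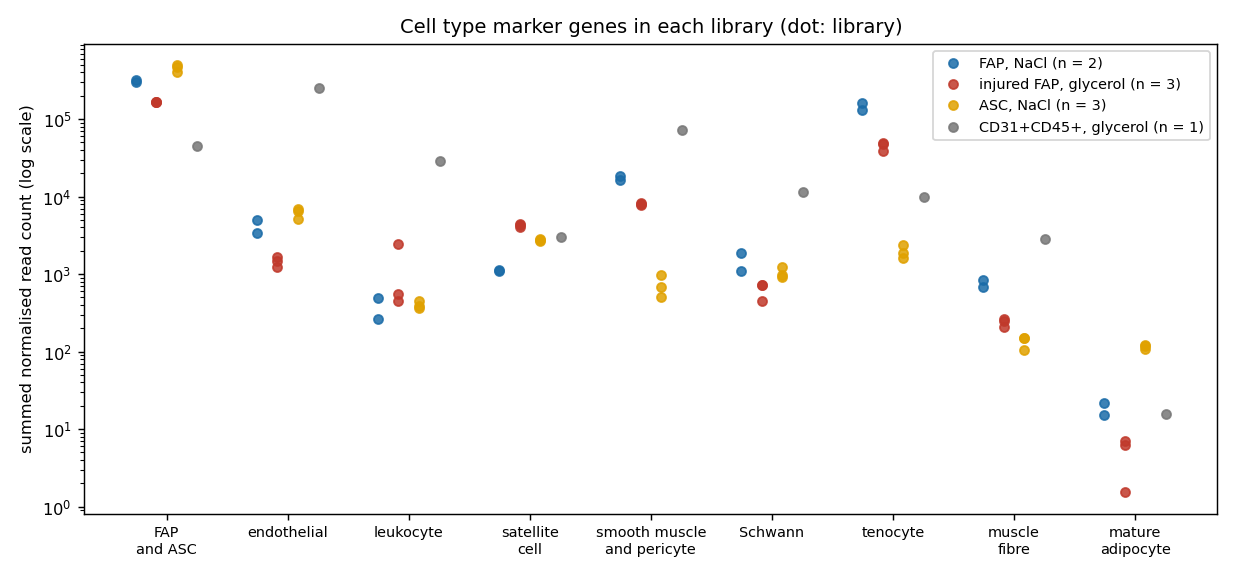
Summed normalised read counts of marker genes of 9 cell types in each library on a log scale; each dot is a library, coloured by group. The tenocyte and the smooth muscle and pericyte sums are highest in FAPs among the ASC and FAP groups and lowest in ASCs, and the endothelial sum of the CD31+CD45+ library (253432) is far above that of the other libraries.

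The 6 genes that mark FAPs and ASCs themselves summed to 323349 and 305560 in FAPs, 168093, 167274 and 167093 in injured FAPs and 494180, 406871 and 468969 in ASCs, with Dcn the most abundant and none at 0. Of these, 2 (Cd34 and Dcn) were lower and 1 (Ly6a) higher in injured FAPs against FAPs. ASCs were lower than FAPs for 1 (Pdgfrb) and higher for 3 (Ly6a, Cd34 and Thy1). Pdgfra was at 17754 and 17756 in FAPs, 23649, 25268 and 23236 in injured FAPs and 10837, 15083 and 13043 in ASCs and did not pass the threshold in either group against FAPs.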

How the data were processed

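Upstream, the methods and the submitters' processing notes name fastq_illumina_filter 0.1 for filtering, FastQC 0.11.9 for quality, HISAT2 2.2.1 for alignment (mm10), featureCounts (Subread 2.0.1) for counting and DESeq2 1.34.0. The authors deposited a normalised signal value per gene and library, and in each library 100% of the values came within 0.01 of a whole number once multiplied by its size factor (0.637 to 1.31). The table has 2 empty columns, and 6684 genes are at 0 in all libraries.

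From these values log2(value + 1) was fitted with limma 3.58.1 in R 4.3.3, with a mean per group over 8 libraries, a trend in the prior variance, 5 residual degrees of freedom and the Benjamini-Hochberg method over the 13601 genes whose mean reached 10. All replicates of a group differed beyond sampling noise (chi-square per gene 11.1 to 70.1). EdgeR 4.0.16 and DESeq2 1.42.0 on the recovered reads, as alternatives, called 7303 and 7227 genes in injured FAPs against FAPs (limma 7153), 6450 and 6412 in ASCs against FAPs (limma 6416) and 7000 and 6865 in injured FAPs against ASCs (limma 6909). The scripts were tested on simulated data. Exon lengths and positions came from GENCODE M21 (GRCm38), which matched 24918 genes, and promoters from RefSeq (GRCm38.p6).

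The members and lists were chosen with earlier results of these data known. Named genes are the 9 genes, the ligand and receptor-side genes, Timp3, up to 4 called genes per other list with the largest change in injured FAPs against FAPs, and the 5 genes nearest to Gli1 and to Ptch1. Other genes named (Sufu, Cdk6, Cebpb, Arl13b, Prkaca, Fst, Tek, Pax7 and the marker genes given as most abundant, at 0, called or in the order of Gli1) were picked after their values were seen. Some genes of the lists are not reported here. The alternatives were the pseudocount (0.5 and 8), no filter or a stricter filter (mean 50), quantile normalization, a common 75th percentile, a fit of only the compared groups, a replicate block, the unadjusted p, the tool and each library left out. Equal library totals were added after seeing the data.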

Additional observations from a re-analysis of the deposited data

Results flagged for a closer look

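Signals in the CD31+CD45+ library, which no comparison used, stood above every NaCl-injected control library for Ptch1 of the 9 genes. They did so for Dhh, Scube1 and Scube3 of the ligand genes and for none of the other receptor-side genes. The share of all genes that stand above the controls in this way was not computed. Ptch1 was at 1543 there (95% Poisson interval 1448 to 1642, 983 reads), where the highest control library had 843. Dhh was at 1059 (981 to 1142, 675 reads), where the highest control library had 12.6. Scube1 was at 315 (273 to 362), where the highest control library had 57.4. Scube3 was at 179 (148 to 215), where the highest control library had 45.2. The intervals cover counting error only. In the same library the summed markers of Schwann cells were at 11604, against at most 1893 in the other libraries, those of smooth muscle and pericytes at 71639, against at most 18599.5, and those of endothelial cells at 253432, against at most 6932. Those of leukocytes were at 29075, against at most 2428, and those of muscle fibres at 2850, against at most 845. Its tenocyte, satellite cell, mature adipocyte and FAP and ASC sums were below the highest of the other libraries. The part of these cell types in the values above was not tested.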

How the results depend on the processing

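Of the 27 results of the 9 genes in the 3 comparisons, 16 kept their side of the threshold in all 20 alternatives and 23 kept their sign. The counts of genes called stayed within 1.5 times under every alternative, and leaving out each library in turn gave 6323 to 7358 in injured FAPs against FAPs, 5653 to 6683 in ASCs against FAPs and 6582 to 7190 in injured FAPs against ASCs. Where a FAP library was left out, the other was assumed to vary like the other groups. Equal library totals, chosen after seeing the data, left 3 of the 9 genes called in injured FAPs against ASCs in place of 6, with the median of all genes moved to 0.71. Over all genes 9069 were then called in that comparison in place of 6909. Of the other named genes, Gpc3 in ASCs against FAPs was at −0.03628 with quantile normalization in place of 0.66, and Csnk1a1 in injured FAPs against ASCs was at 0.67 with equal library totals in place of −0.03. The causes were not tested.

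Samples with the same replicate number share only a number: their deviations from the group means correlated across genes at −0.054 to 0.045, and not every sample correlated best with its own number. With the replicate block, 7046, 6287 and 6861 genes and 7, 7 and 6 of the 9 were called in the 3 comparisons in the order above. A count of 3 reads is worth 2.29 to 4.71, which limits Dhh, Ihh, Scube3 and Plin1.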

Other observations

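Some genes outside the rule for named genes stood out among the pathway lists and were picked after their values were seen. Arl13b, a small GTPase of the ciliary membrane, was at 3392, 2811 and 3003 in ASCs, 813 and 665 in FAPs and 1008, 895 and 960.3 in injured FAPs, so that every ASC library was above all others (log2 fold change 2.06 in ASCs against FAPs, limma with Benjamini-Hochberg adjusted p = 5.69e-07). Fst, the activin inhibitor follistatin, was at 11747, 8047 and 9851 in ASCs, 3305 and 2976 in FAPs and 3322, 2971 and 3132 in injured FAPs (1.64 in ASCs against FAPs, limma adjusted p = 7.24e-06). Prkaca, a catalytic subunit of protein kinase A, which restrains the Gli proteins, was at 2396, 2368 and 2272 in injured FAPs, 1506 and 1628 in FAPs and 979, 1230.0 and 1119 in ASCs, and the injured FAPs lay above all others (0.58 against FAPs, limma adjusted p = 0.00105), a call lost with quantile normalization (0.49), a common 75th percentile (0.53), and without FAP replicate 1 (0.53) or injured FAP replicates 1 (0.57) or 2 (0.58). Cebpb, an early factor of adipogenesis, was at 10414, 9053 and 9171 in injured FAPs, 6710.5 and 5428 in FAPs and 26572, 21780.0 and 22314 in ASCs (0.66 in injured FAPs against FAPs, limma adjusted p = 0.00152), a call lost with quantile normalization (0.55) and without FAP replicate 2 (0.51).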
